A study of Homo sapiens with 12 samples.

Results

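NOP14, HEATR3, GNPNAT1, URM1 and TMEM63B are 5 human genes whose RNA 3' ends were richer in a STAU1 pull-down than in its input and poorer in a GFP pull-down than in its input. Each gene was represented by 1 poly(A) site, called the anchor here: NOP14 at position 2939666 of chromosome 4 on the minus strand, HEATR3 at 50140295 of chromosome 16 on the plus strand, GNPNAT1 at 53241912 of chromosome 14 on the minus strand, URM1 at 131153012 of chromosome 9 on the plus strand and TMEM63B at 44123255 of chromosome 6 on the plus strand, in hg19. All same-strand sites within 1000 nt of an anchor were read with it. That gave 27 of the 640413 sites of the pull-down table, of which 13 had at least 10 reads and 11 entered the test of 33744 sites, and 26 of the 189010 sites of the fraction table, of which 9 had at least 10 reads. The gene names belong to the choice of anchors: the count tables give chromosome, strand and position only, so no exon or untranslated-region class was assigned. RefSeq on GRCh38.p14 places the 5 genes on the same chromosomes.

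The cells were HEK293T, a human embryonic kidney line. Pull-downs were made from STAU1-knockout cells of line C8, made with a Cas9 nickase, that transiently expressed either STAU1-FLAG or FLAG-GFP, and polyadenylated ends were sequenced after an anti-FLAG pull-down (IP) and directly in the total lysate (input), giving STAU1 IP, STAU1 input, GFP IP and GFP input, 2 libraries each. Both pull-downs and both inputs thus lack the endogenous STAU1, and STAU1 was supplied from a transfected construct. The second set held fractions of the STAU1 knockout (KO) and of the isogenic line C9, called wild type (WT) here, with 1 library each of KO polysome, KO cytoplasm, WT polysome and WT cytoplasm RNA. The origin of the replicates is not given beyond their number, so a p-value reflects the spread between libraries, which may be technical.

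Staufen 1 (STAU1) is a double-stranded RNA-binding protein. It binds base-paired RNA, often in 3' untranslated regions, and is known for roles in mRNA transport, translation and an mRNA decay pathway that recruits UPF1. Because alternative polyadenylation sets how much 3' untranslated sequence an mRNA carries, ends of 1 gene can differ in the structures they offer to such a protein. GFP is not an RNA-binding protein, and its pull-down serves as the control for RNA retained by beads and antibody. The 5 genes have different roles. NOP14 acts in the small-subunit processome that matures the small ribosomal subunit. HEATR3 is the human counterpart of yeast Syo1 and serves the nuclear import and assembly of ribosomal protein uL18 with its partner RNA. GNPNAT1 acetylates glucosamine phosphate on the way to UDP-GlcNAc, the sugar donor of glycosylation. URM1 is a ubiquitin-like protein that also carries sulfur for the thiolation of tRNA. TMEM63B belongs to the OSCA/TMEM63 family of mechanically gated ion channels.

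Depth differed strongly between the groups. STAU1 IP held 6212606 and 5727812 reads and STAU1 input 5567893 and 9655646, whereas GFP IP held 1291888 and 1245270 and GFP input 7636541 and 8932299. STAU1 input replicate 1 had reads at 99156 sites, against 175098 in replicate 2. The 4 fraction libraries held between 2799226 and 3483937 reads. Levels below are CPM, read counts brought to a common library size with TMM factors within each table. The 2 tables were scaled separately, and levels are not compared between them.

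The anchors were chosen because they passed an adjusted p of 0.05 in 3 comparisons of the pull-down libraries: higher in STAU1 IP than in STAU1 input, lower in GFP IP than in GFP input, and higher in the double ratio, which is the first ratio divided by the second. In edgeR's quasi-likelihood test, 27 of 33744 sites met all 3 thresholds, or 0.08%, and the 5 anchors are among those 27. The values of the anchors in these 8 libraries are therefore given as a description, without a test. Over all tested sites 3.06% were called higher with STAU1, 3.99% lower with GFP and 0.53% higher in the double ratio, and the median log2 values were 0.12, -0.16 and 0.30. These counts moved with single libraries: the 1032 sites higher with STAU1 became 443 when replicate 1 of the STAU1 input was left out, against 1505 with replicate 2 left out, and the 1348 sites lower with GFP became 413 without GFP IP replicate 1. The anchor nearest to the limit was TMEM63B, whose largest adjusted p of the 3 in that test was 0.0422. The next site outside the limit lay on the minus strand of chromosome 8 at 134249419, with log2 values of 1.03 with STAU1, -0.93 with GFP and 1.96 in the double ratio and a largest adjusted p of 0.0524.

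Of the ribosome-assembly genes, NOP14 had the largest double ratio of the 5. Its anchor measured 85.3 and 85.7 CPM in STAU1 IP, 24.2 and 24.5 CPM in STAU1 input, 12.4 and 13.1 CPM in GFP IP, and 33.9 and 25.7 CPM in GFP input. Both STAU1 IP libraries lay above all 6 others, and both GFP IP libraries lay below all 6 others. The fitted log2 ratio of pull-down to input was 1.81 ± 0.29 (SE) with STAU1 and -1.22 ± 0.33 with GFP, and the log2 double ratio was 3.03 ± 0.44. The ratio of mean CPM was 3.51 with STAU1.

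HEATR3 was the most abundant anchor. It measured 282.9 and 394.9 CPM in STAU1 IP, 89.3 and 130.1 CPM in STAU1 input, 53.2 and 64.1 CPM in GFP IP, and 153.3 and 128.8 CPM in GFP input. STAU1 IP was again above, and GFP IP below, every other library, but the replicates of both STAU1 groups differed more than for NOP14. The log2 ratios were 1.63 ± 0.24 with STAU1 and -1.27 ± 0.25 with GFP, with a log2 double ratio of 2.89 ± 0.35. Over the 4 pairings of a STAU1 IP with a STAU1 input library, the log2 ratio ran between 1.12 and 2.14.

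GNPNAT1, the acetyltransferase, measured 212.6 and 205.4 CPM in STAU1 IP, 95.1 and 79.9 CPM in STAU1 input, 35.9 and 47.4 CPM in GFP IP, and 78.7 and 91.5 CPM in GFP input. The 4 input values overlapped between the 2 transfections, with the pull-downs on either side of them. The log2 ratio was 1.26 ± 0.22 with STAU1 and -1.03 ± 0.24 with GFP, and the log2 double ratio was 2.29 ± 0.33.

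URM1, the sulfur carrier, measured 82.7 and 88.1 CPM in STAU1 IP, 43.0 and 35.2 CPM in STAU1 input, 11.8 and 18.2 CPM in GFP IP, and 33.2 and 34.6 CPM in GFP input. Here too the pull-downs did not overlap with any input. The log2 ratio was 1.13 ± 0.28 with STAU1 and -1.18 ± 0.32 with GFP, and the log2 double ratio was 2.31 ± 0.43.

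TMEM63B, the channel gene, had the smallest ratio with STAU1. It measured 72.2 and 70.2 CPM in STAU1 IP, 37.0 and 35.6 CPM in STAU1 input, 14.5 and 13.8 CPM in GFP IP, and 30.5 and 36.6 CPM in GFP input. The log2 ratio was 0.97 ± 0.28 with STAU1 and -1.24 ± 0.32 with GFP, and the log2 double ratio was 2.21 ± 0.42. The ratio of mean CPM was 1.96 with STAU1, the lowest of the 5.

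**Figure D1:**
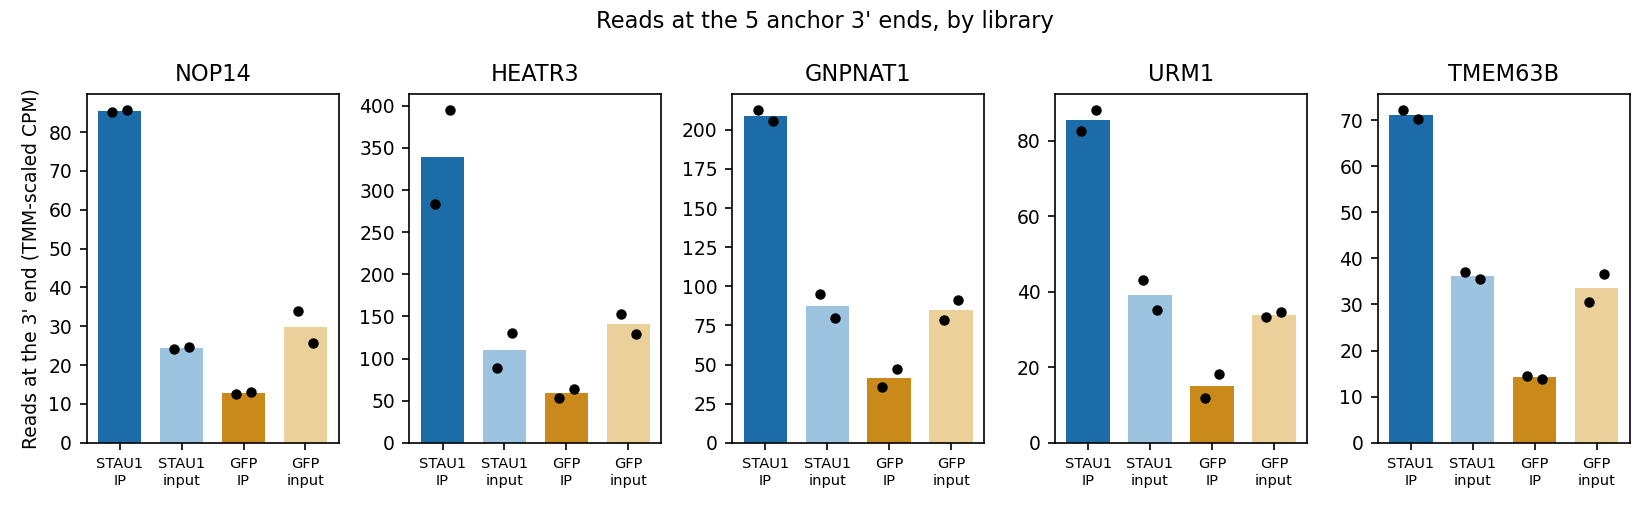
Level of each anchor in CPM (vertical axis) in the 8 pull-down libraries, 1 panel per gene; points are libraries and bars are group means. In each panel both STAU1 IP points lie above all inputs and both GFP IP points below them, for example 85.3 and 85.7 CPM in STAU1 IP and 12.4 and 13.1 CPM in GFP IP for NOP14.

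The 5 anchors differed more among themselves with STAU1 than with GFP. Their log2 ratios spanned 0.97 to 1.81 with STAU1, whereas with GFP they spanned -1.27 to -1.03, a range smaller than the SE of any single GFP value. Given those errors, no order of the anchors can be read from the GFP ratios. In the STAU1 ratio, neighbours in the order NOP14, HEATR3, GNPNAT1, URM1 and TMEM63B differed by less than the sum of their SEs. Before the pull-down, the log2 ratio of STAU1 input to GFP input was -0.29 ± 0.28 for NOP14 and -0.36 ± 0.23 for HEATR3. It was 0.04 ± 0.22 for GNPNAT1, 0.20 ± 0.28 for URM1 and 0.11 ± 0.28 for TMEM63B. The inputs are the denominators of the ratios that chose the anchors, so these values are a description. Set directly against each other, STAU1 IP over GFP IP gave log2 values between 2.32 for TMEM63B and 2.74 for NOP14.

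The GFP side rests on few reads. Summed over both GFP IP libraries, the anchors had 36 reads for NOP14, 165 for HEATR3, 117 for GNPNAT1, 42 for URM1 and 40 for TMEM63B, against 1072, 4228, 2623, 1070 and 893 reads in the STAU1 IP libraries in the same order. The exact Poisson 95% interval for NOP14 in GFP IP was 25.2 to 49.8 reads and that for HEATR3 141 to 192 reads, covering counting error only, since PCR reads are not independent molecules. The part of the lower GFP IP depth in the results was not tested. With any 1 of the 8 libraries left out, between 0 and 3 of the 5 anchors still met all 3 thresholds. The count was 0 without GFP IP replicate 1, 2 without GFP IP replicate 2 or either GFP input, and 3 without any 1 STAU1 library, while every log2 double ratio stayed between 2.02 and 3.20. Without STAU1 input replicate 1, which had reads at fewer sites than its replicate, the log2 double ratio was 3.02 for NOP14, 2.65 for HEATR3, 2.42 for GNPNAT1, 2.46 for URM1 and 2.24 for TMEM63B.

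**Figure D2:**
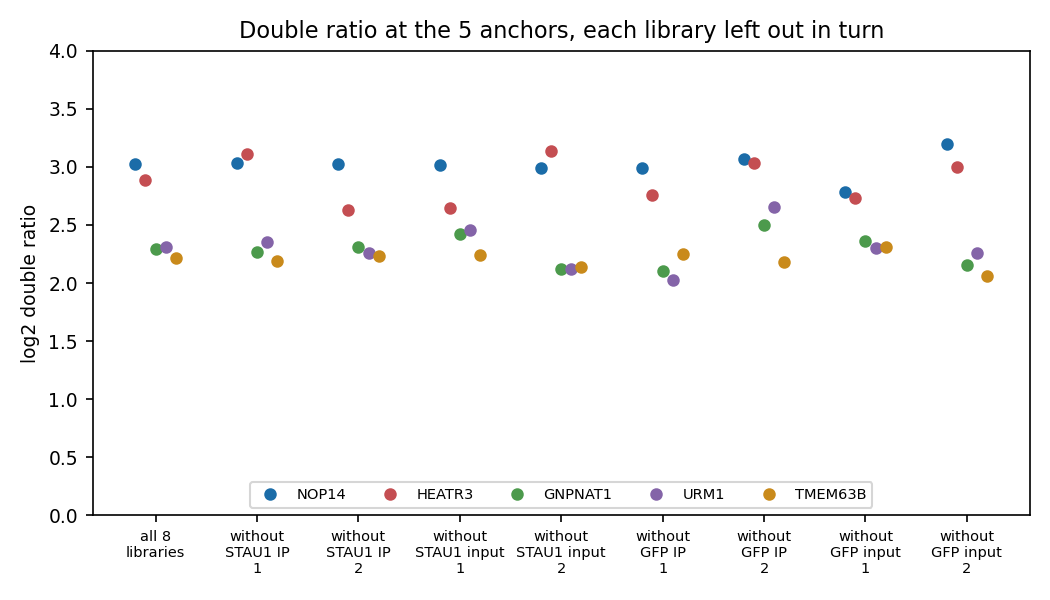
Log2 double ratio (vertical axis) of the 5 anchors with all 8 libraries and with each library left out in turn. The anchor values stay between 2.02 and 3.20. The NOP14 proximal end is not drawn, and its values stay between 2.66 and 2.93.

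The choice of scaling moved the whole GFP comparison. The median log2 GFP ratio over all sites was -0.16 with TMM and 0.13 with library totals, and the median log2 double ratio was 0.30 and 0.14. Relative to these medians, the GFP ratios of the anchors lay between -1.11 and -0.88 with TMM and between -1.09 and -0.85 with library totals, and the double ratios between 1.91 and 2.73 and between 1.90 and 2.72. All 5 anchors were lower in GFP IP than in GFP input under TMM, RLE size factors and library totals, but 2 of 5 met all 3 thresholds with RLE factors and 1 of 5 with library totals.

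**Figure D3:**
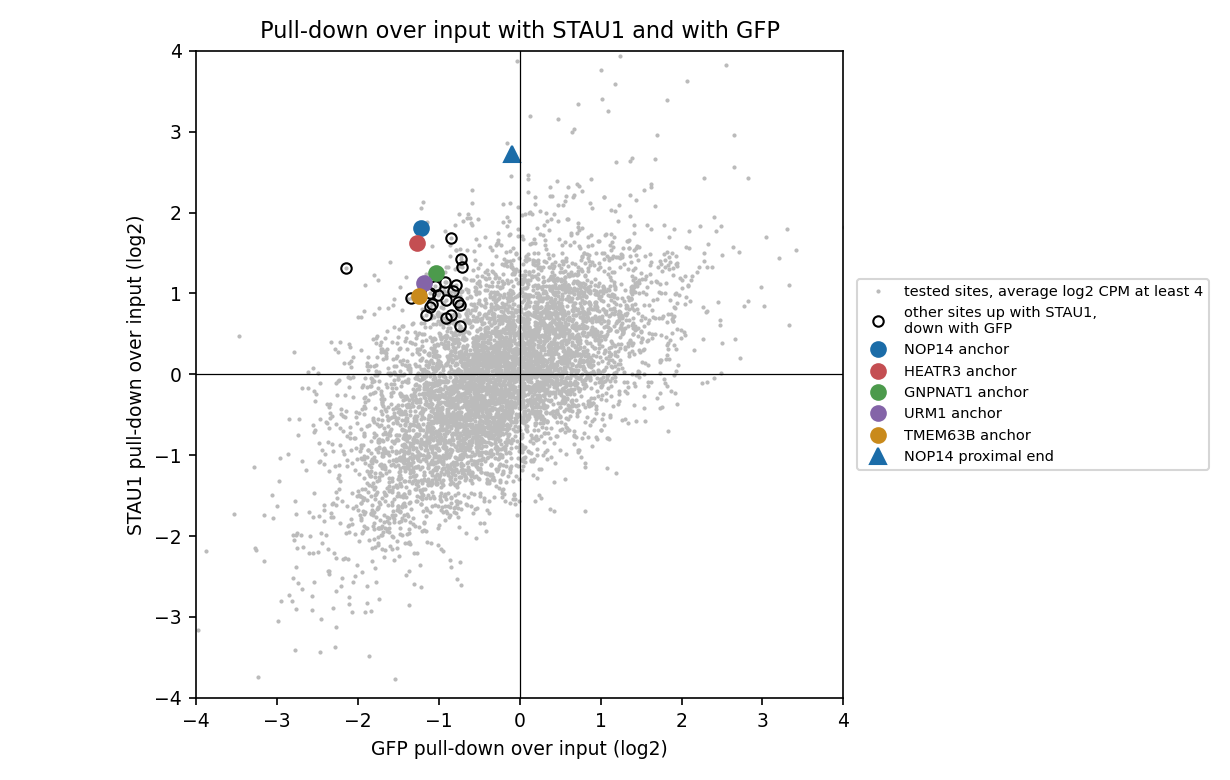
Log2 ratio of pull-down to input with STAU1 (vertical axis) against GFP (horizontal axis) at tested sites with an average log2 CPM of at least 4 (grey, 6201 of 6218 drawn), with the anchors, the NOP14 proximal end and 20 other sites that met the same 3 thresholds. The anchors lie at the upper left, and the NOP14 proximal end lies above them at 2.72 with STAU1 and -0.10 with GFP.

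NOP14 had a second abundant end. It lies at 2939841, 175 nt upstream of the anchor, and is called the proximal end here. It measured 142.5 and 158.3 CPM in STAU1 IP, 23.1 and 22.5 CPM in STAU1 input, 27.6 and 32.1 CPM in GFP IP, and 34.8 and 29.3 CPM in GFP input. The STAU1 IP values stood far above the rest, and the GFP IP values overlapped with those of the GFP input. The mean was 150.4 ± 11.2 CPM in STAU1 IP and 22.8 ± 0.46 CPM in STAU1 input (SD, n = 2 each), a ratio of 6.59.

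The proximal end was not among the sites that chose the genes, so its own counts were tested. It lies 175 nt from a chosen anchor and was counted in the same libraries, so its test is not independent of that choice. It rose in STAU1 IP over STAU1 input by 2.72 ± 0.26 on the log2 scale, with an adjusted p of 3.43e-06 in edgeR's quasi-likelihood test over 33744 sites. The log2 ratio with GFP was -0.10 ± 0.27 (edgeR adjusted p = 0.906). The log2 double ratio was 2.82 ± 0.37, with an edgeR adjusted p of 0.000969, and it stayed past the threshold without any 1 library, where its largest adjusted p was 0.0336. Among the 6218 sites with an average log2 CPM of at least 4, the proximal end ranked 22 in the STAU1 ratio and 20 in the double ratio. The anchor ranked 12 in the double ratio.

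The proximal end was a larger part of NOP14 ends in both pull-downs than in either input. Its share of the reads at the 2 ends was 62.6% and 64.9% in STAU1 IP, 48.9% and 47.8% in STAU1 input, 69.0% and 71.0% in GFP IP, and 50.6% and 53.3% in GFP input. The means were 63.7% ± 1.65 in STAU1 IP, 48.3% ± 0.73 in STAU1 input, 70.0% ± 1.42 in GFP IP and 51.9% ± 1.87 in GFP input (SD, n = 2 each). Pull-down and input shares did not overlap with either protein. The other end of the share is the anchor. It was chosen in these same libraries as high in STAU1 IP and low in GFP IP over input. The shares and the pair values below are therefore not independent of that choice. In an edgeR fit of both ends' counts over 2192 site pairs, which was chosen after the data were seen, the anchor fell short of the proximal end by a log2 value of -0.91 ± 0.48 in STAU1 IP over input (adjusted p = 0.642, unadjusted 0.0860). The same value was -1.11 ± 0.52 in GFP IP over input (edgeR adjusted p = 0.471, unadjusted 0.0564). The difference between the 2 proteins was 0.20 ± 0.70 (edgeR adjusted p = 0.980). None of the 3 passed the threshold, and 0.0456% of the pairs were called higher and 0% lower in the STAU1 comparison, where 113 pairs were higher and 64 lower at an unadjusted p of 0.05 in edgeR. At the same unadjusted p, 113 pairs were higher and 121 lower with GFP, and 75 were higher and 44 lower in the difference.

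**Figure D4:**
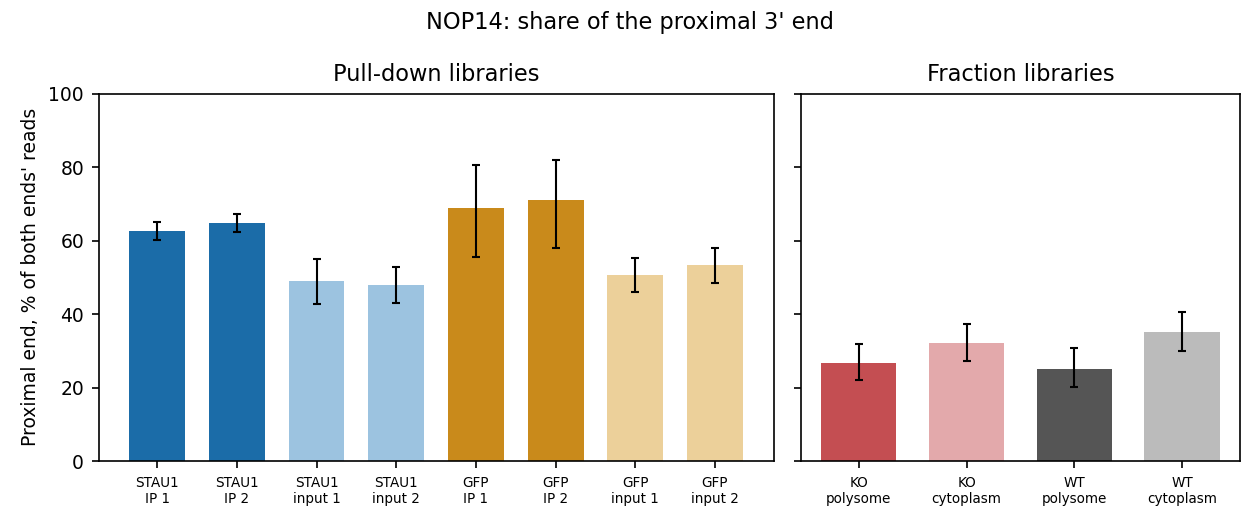
Share of reads at the NOP14 proximal end among reads at that end and the anchor, in percent (vertical axis), for the pull-down libraries (left) and the fraction libraries (right). Error bars in both panels are exact binomial 95% intervals of each library. The share is 62.6% and 64.9% in STAU1 IP and 69.0% and 71.0% in GFP IP, above all 4 inputs, and it lies between 25.2% and 35.1% in the fractions.

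When all NOP14 reads within 1000 nt were added up, the proximal end dominated. The summed log2 ratio was 2.29 with STAU1, -0.50 with GFP (edgeR adjusted p = 0.303) and 2.79 in the double ratio. The other 4 genes met the 3 thresholds on sums as on anchors, since the anchor held 96.5% of the window's reads for HEATR3, 99.8% for GNPNAT1, 95.9% for URM1 and 99.6% for TMEM63B. For NOP14 it held 40.3%.

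Tested sites farther off, between 1000 and 10000 nt from an anchor, were found for 3 genes. The NOP14-side site had a STAU1 ratio near 0 and lower levels in GFP IP than in GFP input. The site lies on the same strand at 2932295, 7371 nt downstream of the anchor, and was not assigned to a gene. It measured 193.6 and 222.3 CPM in STAU1 IP, 199.3 and 179.9 CPM in STAU1 input, 116.1 and 137.8 CPM in GFP IP, and 224.8 and 179.9 CPM in GFP input. The log2 ratio was 0.13 ± 0.20 with STAU1 (edgeR adjusted p = 0.790) and -0.67 ± 0.21 with GFP (edgeR adjusted p = 0.0706). Its log2 double ratio was 0.81 ± 0.29 (edgeR adjusted p = 0.281). On the GNPNAT1 side, a site 2871 nt upstream had 4 and 26 reads in STAU1 IP, 23 and 37 in STAU1 input, 0 and 3 in GFP IP, and 14 and 12 in GFP input. On the URM1 side, a site 1274 nt downstream had 36 and 28 reads in STAU1 IP, 16 and 44 in STAU1 input, 0 and 2 in GFP IP, and 8 and 18 in GFP input. The log2 ratio with STAU1 was -0.76 ± 1.26 for the GNPNAT1-side site (edgeR adjusted p = 0.806) and 0.36 ± 1.05 for the URM1-side site (edgeR adjusted p = 0.904).

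The remaining sites near the anchors were faint. Of the 6 tested sites other than anchors within 1000 nt, the NOP14 proximal end was the 1 called with STAU1 and in the double ratio, against the 3.06% and 0.53% of all sites. With GFP the edgeR adjusted p of these 6 sites lay between 0.458 and 0.906. In HEATR3, a site 888 nt downstream had 21 and 30 reads in STAU1 IP, 5 and 13 in STAU1 input, 1 and 0 in GFP IP, and 11 and 26 in GFP input. Its log2 ratio with STAU1 was 1.76 ± 1.27 (edgeR adjusted p = 0.492), the direction of the anchor but not past the threshold. Another HEATR3 end, 144 nt downstream, had 21 and 44 reads in STAU1 IP, 8 and 23 in STAU1 input, 0 and 6 in GFP IP, and 0 and 15 in GFP input. The third, 898 nt upstream, had 9 and 13 reads in STAU1 IP, 1 and 2 in STAU1 input, 1 and 3 in GFP IP, and 0 and 3 in GFP input.

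In URM1, a site 190 nt upstream of the anchor had 14 and 13 reads in STAU1 IP, 36 and 0 in STAU1 input, 0 and 0 in GFP IP, and 26 and 0 in GFP input. Such a split between replicates of 1 group leaves no interpretable ratio, and a NOP14 site 62 nt upstream was split in the same way, with 0 and 15 reads in STAU1 IP, 15 and 0 in STAU1 input, 0 and 2 in GFP IP, and none in GFP input. GNPNAT1 and TMEM63B had no tested site besides the anchor within 1000 nt. Of the 16 sites in the windows that were not tested, the highest had 13 reads in all 8 libraries together.

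Among the 27 sites that met the 3 thresholds, the anchors were less abundant than most, a description of sites chosen by the same rule. Their average log2 CPM was between 5.27 and 7.35 with a median of 5.46, against a median of 8.06 over the 22 other sites. The median log2 double ratio was 2.31 over the 5 anchors, 1.97 over the 22 others and 0.30 over all tested sites. In the order of the double ratio, NOP14 was at place 4, HEATR3 at 5, URM1 at 7, GNPNAT1 at 8 and TMEM63B at 10 of the 27.

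The sites most like each anchor over the 8 libraries were sought among 6212 abundant sites, by the root mean square difference of log2 CPM after each site's mean was removed. The nearest to NOP14 was at 68522355 on the minus strand of chromosome 11 with a difference of 0.20. For HEATR3 it was at 72058732 on the minus strand of chromosome 10 with 0.21. The counterpart of GNPNAT1 was position 15802668 of chromosome X, plus strand, with 0.14. URM1 came closest to position 102123376 of chromosome 10, plus strand, with 0.22. For TMEM63B it was position 5900 on the plus strand of the mitochondrial genome with 0.11. The 3 nearest sites of each anchor gave 12 distinct sites, of which 5 belong to the 27 sites above. Among the anchors themselves, GNPNAT1 and URM1 were the closest pair at 0.14, and HEATR3 and TMEM63B the farthest at 0.35.

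The fraction table asks whether loss of STAU1 goes with a different polysome load of these RNAs, and it was not used to choose them. With 1 library per group there is no replicate check, so no test was made, and the intervals below are 95% counting intervals. In such bulk libraries, fewer cells with an RNA and less of it per cell cannot be told apart. Polysome over cytoplasm was read where each of the 4 libraries had 50 or more reads, which held for 4766 sites, and 4 of the 5 anchors reached that depth. Over those 4766 sites, KO minus WT in the log2 ratio had a median of 0.01 and an SD of 0.39.

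With TMM, NOP14 and HEATR3 had lower levels in polysomes than in cytoplasm in both genotypes, a difference that depended on the scaling. The NOP14 anchor measured 61.9 CPM in KO polysomes and 78.6 CPM in KO cytoplasm, and 69.3 CPM in WT polysomes and 82.4 CPM in WT cytoplasm. That is a log2 ratio of -0.34 (-0.61 to -0.08) in KO and -0.25 (-0.53 to 0.03) in WT. HEATR3 measured 234.6 CPM in KO polysomes and 281.0 CPM in KO cytoplasm, and 210.7 CPM in WT polysomes and 262.8 CPM in WT cytoplasm. Its log2 ratio was -0.26 (-0.40 to -0.12) in KO and -0.32 (-0.48 to -0.16) in WT. With library totals the log2 ratio was -0.15 in KO and -0.0018 in WT for NOP14, and -0.07 in KO and -0.07 in WT for HEATR3, and all 4 intervals included 0. Library totals put the median of the 4766 sites at 0.21 in KO and 0.24 in WT, against 0.01 and -0.01 with TMM. Relative to the median, the value was -0.36 in KO and -0.24 in WT for NOP14 and -0.27 in KO and -0.31 in WT for HEATR3.

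GNPNAT1 and URM1 were higher in polysomes than in cytoplasm with TMM, RLE factors and library totals. GNPNAT1 measured 136.0 CPM in KO polysomes and 113.5 CPM in KO cytoplasm, and 172.5 CPM in WT polysomes and 143.6 CPM in WT cytoplasm, a log2 ratio of 0.26 (0.06 to 0.46) in KO and 0.26 (0.07 to 0.46) in WT. URM1 measured 80.4 CPM in KO polysomes and 56.1 CPM in KO cytoplasm, and 94.4 CPM in WT polysomes and 75.5 CPM in WT cytoplasm. Its log2 ratio was 0.52 (0.25 to 0.79) in KO and 0.32 (0.05 to 0.59) in WT.

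Between the genotypes, the polysome load of these 4 anchors was not distinguishable at this depth. KO minus WT in log2 polysome over cytoplasm was -0.09 (-0.48 to 0.30) for NOP14, 0.06 (-0.15 to 0.27) for HEATR3, -0.0040 (-0.28 to 0.28) for GNPNAT1 and 0.20 (-0.19 to 0.58) for URM1. All 4 intervals include 0, and all 4 values lie within 1 SD of the 4766 sites. The 17 other sites of the 27 that had 50 reads in each library ranged between -0.38 and 0.77 with a median of -0.02. TMEM63B had 65 reads in KO polysomes and 34 in KO cytoplasm, and 34 in WT polysomes and 10 in WT cytoplasm, under the minimum. Its KO minus WT value was -0.94 (-2.28 to 0.32).

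**Figure D5:**
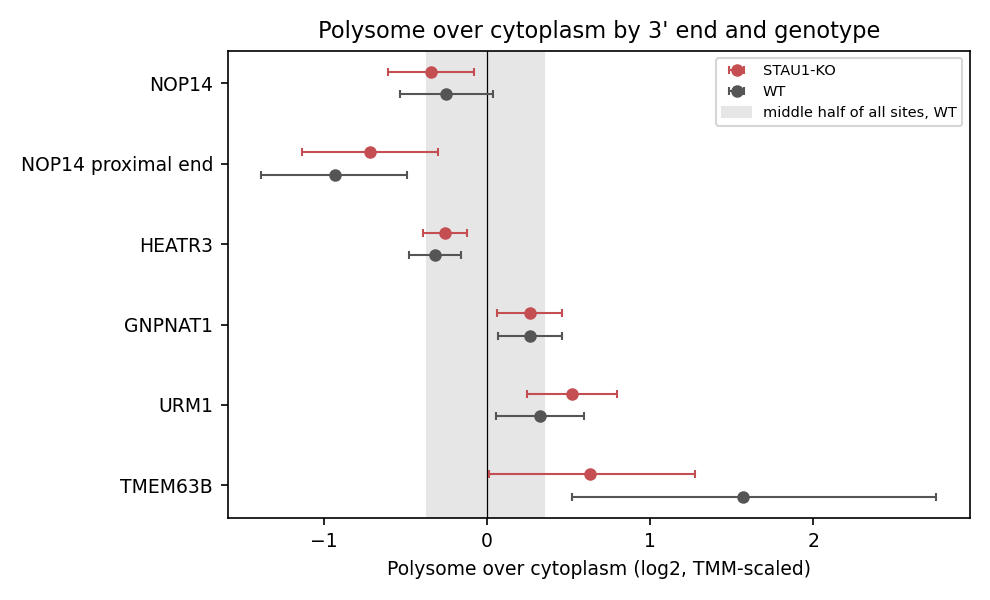
Log2 ratio of polysome to cytoplasm (horizontal axis) in KO and WT for the anchors and the NOP14 proximal end, with 95% counting intervals from 1 library per group. KO and WT intervals overlap for every site drawn, and TMEM63B, with 10 reads in WT cytoplasm, has the widest ones.

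Levels within a fraction differed for some anchors. In cytoplasm, the log2 ratio of KO to WT was -0.34 (-0.55 to -0.12) for GNPNAT1 and -0.43 (-0.73 to -0.13) for URM1, with -0.07 (-0.34 to 0.20) for NOP14 and 0.10 (-0.05 to 0.24) for HEATR3. In polysomes, it was -0.34 (-0.52 to -0.16) for GNPNAT1, -0.23 (-0.47 to 0.01) for URM1, -0.16 (-0.44 to 0.11) for NOP14 and 0.15 (0.0059 to 0.30) for HEATR3. The HEATR3 interval in polysomes included 0 with RLE factors (-0.0021 to 0.30) but not with library totals (0.07 to 0.37). In cytoplasm it also excluded 0 with library totals (0.07 to 0.36). For URM1 in polysomes the interval excluded 0 with RLE factors (-0.48 to -0.0010) but not with library totals (-0.41 to 0.07). The SD of the KO to WT ratio over the 4766 sites was 0.47 in cytoplasm and 0.41 in polysomes. The counting intervals of GNPNAT1 thus exclude 0 while its values lie within the spread between sites. TMEM63B was higher in KO in both fractions, by 1.49 (0.44 to 2.68) in cytoplasm on 34 KO and 10 WT reads and by 0.56 (-0.06 to 1.20) in polysomes.

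The second NOP14 end was also counted in the fractions. The proximal end measured 22.6 CPM in KO polysomes and 37.2 CPM in KO cytoplasm, and 23.3 CPM in WT polysomes and 44.5 CPM in WT cytoplasm. Polysome over cytoplasm was -0.72 (-1.14 to -0.30) in KO and -0.93 (-1.38 to -0.49) in WT on the log2 scale. The proximal share of the reads at both ends was 26.8% (exact binomial 95% interval 22.0 to 31.9) in KO polysomes and 32.1% (27.3 to 37.2) in KO cytoplasm, and 25.2% (20.2 to 30.8) in WT polysomes and 35.1% (29.9 to 40.5) in WT cytoplasm. The anchor exceeded the proximal end in the log2 polysome ratio by 0.37 (-0.12 to 0.87) in KO and by 0.68 (0.15 to 1.22) in WT. The lower interval bound was above 0 in WT, but the 2 genotypes' intervals overlap, and KO minus WT at the proximal end was 0.21 (-0.40 to 0.83).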

How the data were processed

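Ends of polyadenylated RNA were sequenced by 3'READS+ in 8 pull-down and 4 fraction libraries of HEK293T cells. The submitters' processing notes name STAR and hg19. Versions and the clustering of sites are not given in the sources used here. For each experiment 1 table of raw counts by site, not normalized, was deposited by the authors, and all its columns were used. The anchors, gene lists and rules were chosen with earlier results of these data known. The sites carry no gene names, and RefSeq was at hand only on GRCh38.p14, so planned lists of pathway partners, the STAU1 transcript and cell markers were not analysed here.

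The test was the quasi-likelihood F test of edgeR 4.0.16 (R 4.3.3) with TMM factors, filterByExpr, 1 term per group, all 8 libraries (4 residual degrees of freedom), Benjamini-Hochberg adjustment across 33744 sites and a threshold of 0.05. The fit was checked on simulated counts. DESeq2 1.42.0 gave an alternative fit. Fractions had 1 library per group: log2 ratios of TMM-scaled counts with 95% conditional binomial counting intervals, at sites with at least 50 reads per library. Sites with at least 10 reads inside a 1000 nt window, or in the 10000 nt around an anchor if tested, were named, and for likeness the 3 nearest sites per anchor were taken on log2 CPM (prior count 2). Alternatives were other scalings, filters and windows, 0.5 reads added to fraction counts, a replicate block, DESeq2 and leaving out each library; site pairs were added after the data were seen.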

Additional observations from a re-analysis of the deposited data

Results flagged for a closer look

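The effect of the pull-down differed between the 2 proteins at the NOP14 proximal end at 2939841, by the test of the difference itself in edgeR. This end did not enter the choice of genes, but it lies 175 nt from a chosen anchor and was counted in the same libraries. Its test is therefore not independent of that choice. The log2 double ratio of this end was 2.82. The 5 anchors were chosen for this difference, so the same test says nothing further of them, and their log2 double ratios restate the choice: 3.03 for NOP14, 2.89 for HEATR3, 2.29 for GNPNAT1, 2.31 for URM1 and 2.21 for TMEM63B. At the proximal end the difference came with a STAU1 ratio of 2.72 and a GFP ratio of -0.10. The GFP ratios of the anchors lay between -1.27 and -1.03, but the choice required them to be negative and past the threshold. The contrast with the proximal end is therefore a description. Compared directly, the 2 NOP14 ends did not differ past the threshold in GFP IP over input (-1.11 ± 0.52, edgeR adjusted p = 0.471). That comparison also uses the counts on which the anchor was chosen.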

How the results depend on the processing

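The 5 anchors kept the sign of all 3 log2 values under every alternative run. The 27 sites past all 3 thresholds became 12 with library totals and between 2 and 26 with 1 library left out. TMEM63B had a log2 double ratio of 2.45 with all sites of at least 10 reads. With that minimum 31 sites met all 3 thresholds, 3 anchors among them. With a minimum of 1 CPM it was 25 sites and 4 anchors, and with DESeq2 37 sites and 4 anchors. At the NOP14 proximal end the log2 GFP ratio changed sign, to 0.050 with RLE factors, 0.20 with library totals and 0.050 with DESeq2, and ran between -0.20 and 0.069 with 1 library left out; none passed the threshold. Sites called higher in the double ratio numbered 179, but 485 with sites of at least 10 reads, 441 with DESeq2 and between 17 and 390 with 1 library left out. With all 8 libraries kept, sites called higher with STAU1 (1032) ranged between 853 with a minimum of 1 CPM and 1543 with DESeq2. Those lower with GFP (1348) ranged between 751 with library totals and 1958 with sites of at least 10 reads. Replicate differences of 2 groups correlated between -0.19 (STAU1 IP with GFP input) and 0.10 (STAU1 IP with GFP IP) over the 6 pairs of groups, with -0.04 for STAU1 IP with its input and 0.04 for GFP IP with its input. Between an IP and its input, these correlations gave no evidence of pairing. Whether libraries of the same number share a replicate effect was not tested. With the replicate block, 40 sites met all 3 thresholds, against 27 without it, and all 5 anchors were among the 40. Sites called higher in the double ratio numbered 389 with the block, against 179, and the anchors' double ratios lay between 2.21 and 3.02. KO minus WT in polysome over cytoplasm stayed within its counting interval at the 5 anchors under every alternative run. Polysome over cytoplasm left its interval with library totals, a scaling added for it after the data were seen, for HEATR3 (-0.07 in KO and -0.07 in WT) and for GNPNAT1 in WT (0.51). The cause of these shifts was not tested. At 36 to 165 reads per anchor, counting error limits the GFP IP values.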
